A study of Mus musculus with 7 samples.

Results

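The Ret gene and 9 genes that ERK signaling induces were followed in B-cell precursor (BCP) cells of Eμ-Ret mice before and after leukemia had developed. The 10 members (Ret, Dusp4, Dusp5, Dusp6, Spry1, Spry2, Spred1, Spred2, Etv5 and Egr1) were taken by gene name from an RNA-seq table of 24341 genes. They were meant as a readout of the output of the Ret kinase. No rule on their values was used, but they were chosen with earlier results of these data known. The table held BCP cells from spleen in 4 preleukemic samples, from mice that were young and healthy by the study's account, and in 3 leukemic samples, from older, moribund mice with overt disease. The paper's RNA-seq methods do not say how these cells were purified. For in vitro work the paper describes enriched preleukemic cells and leukemic spleen cells that mostly were not enriched. Its flow cytometry methods describe sorting of preleukemic BCP cells by surface phenotype at high purity. For proteomics it names purified cells of both groups. Whether purification differed between the groups here is not known from these methods. The mice of all 7 samples carried the Emu-Ret transgene as hemizygotes on a BALB/c background, so no sample lacked the oncogenic kinase. The transgene is a Ret fusion gene driven by the enhancer of the immunoglobulin heavy chain locus, which acts in B-lineage cells. The BCP population of this model is defined by intermediate B220, intermediate CD43 and high BP-1. Mouse age was not given in the labels, and the table has 1 row for Ret, in which the mouse gene and the transgene are not parted.

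Ret is a receptor tyrosine kinase that is normally switched on when a GDNF-family ligand and a GFRα co-receptor bring receptors together, whereas fusion forms of the kinase signal without ligand. The active kinase recruits adaptors that load RAS with GTP, and RAS passes the signal through RAF and MEK to ERK. ERK then induces genes whose products shut the pathway down again. Dual-specificity phosphatases dephosphorylate ERK, and Sprouty and Spred proteins act upstream at the receptor, RAS and RAF. In B-cell precursors the same cascade also runs downstream of the pre-B-cell receptor.

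Values are given as FPKM, fragments scaled to the length of the transcript and to the number of mapped fragments, which allow genes to be compared per length. The low values step in whole fragments, from which a depth of 13.4 M to 16.0 M fragments per sample was read. Markers of BCP cells were present in every sample, with all 15 listed genes above 5 FPKM throughout. Their summed level was 3593 to 5447 FPKM in leukemic samples and 6632 to 8287 FPKM in preleukemic samples. Red cell precursor markers moved the other way, with 12 of the 12 found in the table higher in leukemic BCP cells. Their summed level was 4769, 23295 and 11348 FPKM in leukemic replicates 1, 2 and 3 and 220 to 2257 FPKM in preleukemic samples, where replicate 1 held the highest value. Neutrophil markers summed to 1449 to 1806 FPKM in leukemic and 152 to 884 FPKM in preleukemic samples, with 5 of 10 higher. Macrophage markers summed to 50.7 to 246 FPKM and 14.2 to 24.8 FPKM, with 6 of the 10 tested higher. Of all genes tested, 8.47% were higher. A gene entered the test with an FPKM sum of at least 10 over all samples. The preleukemic values of Gata1, Epor, Csf3r, Csf1r, Adgre1 and Vcam1 alone do not reach it. These markers, all among those called higher, entered through their leukemic values, which favours a rise. T and NK cell markers (12.6 to 69.8 against 14.1 to 20.5 FPKM) and stromal and endothelial markers (39.3 to 57.5 against 37.2 to 56.9 FPKM) overlapped between the groups, and no listed marker was at the 0.01 FPKM floor in all samples. The part of these other cells in the results on Ret and the ERK-induced genes was not tested. In bulk samples such as these, fewer cells of a type and less RNA per cell cannot be told apart.

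All 10 members were expressed in all 7 samples and passed the filter on low values. In preleukemic BCP cells Dusp6 had the highest level, with 177 ± 8.75 FPKM (SD, n = 4), and it ranked between 339 and 678 among all 24341 genes over the 7 samples. Spred1 (29.0 ± 2.75), Egr1 (27.6 ± 5.73), Spred2 (25.6 ± 0.94) and Etv5 (23.2 ± 1.73) followed, and each overlapped with its neighbour in this order. Spry2 stood apart at 14.5 ± 1.22 FPKM. Ret (7.25 ± 1.21), Dusp5 (7.17 ± 3.65), Dusp4 (4.91 ± 1.88) and Spry1 (3.35 ± 0.592) formed the low end, again with overlapping neighbours. The kinase gene itself was thus among the least expressed members, and its rank lay between 7446 and 9715.

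**Figure D1:**
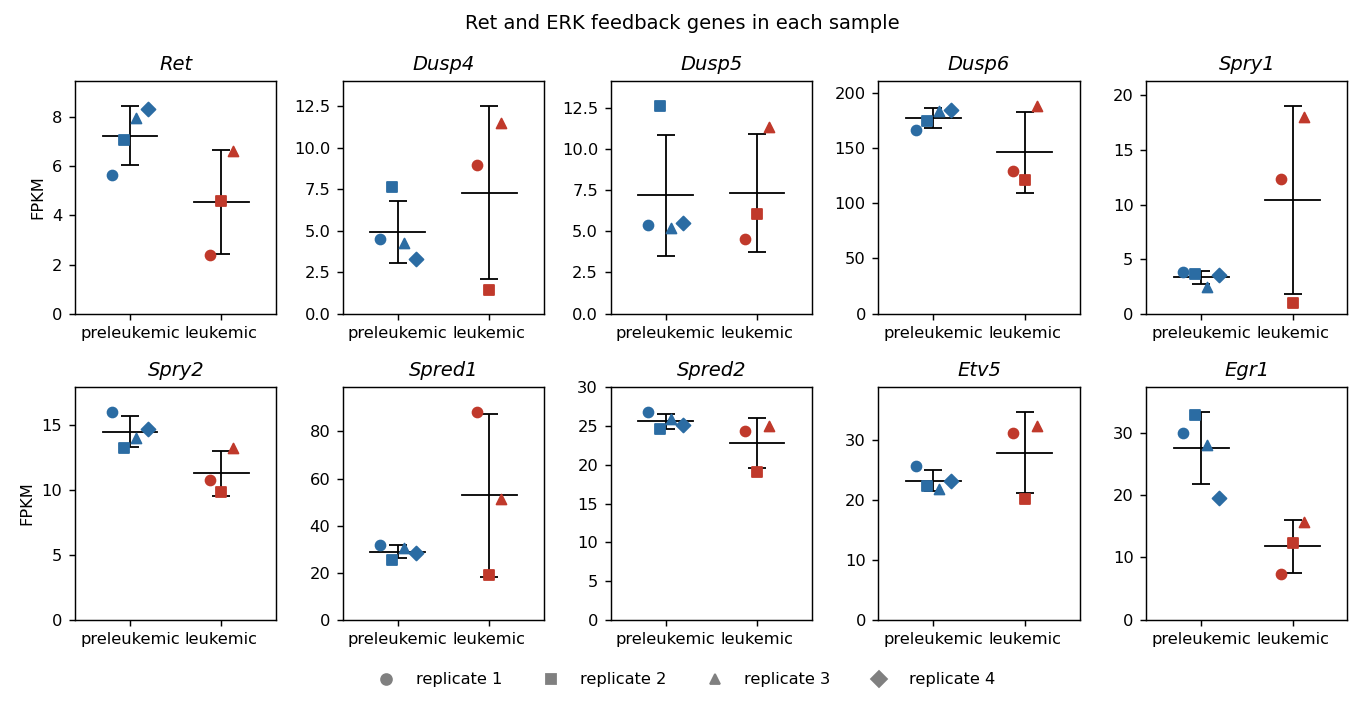
FPKM of Ret and the 9 ERK-induced genes in each of 4 preleukemic (blue) and 3 leukemic (red) samples, with a linear axis from 0 for each gene. The long line is the group mean, the bars are 1 SD, and the marker shape gives the replicate number, which was not taken to pair samples across groups. Egr1 is the only gene whose groups do not overlap, while Spry1, Dusp4 and Spred1 spread widely among leukemic samples, with replicate 2 lowest.

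The first comparison asked whether the level of Ret and of its ERK-induced feedback genes changed between the preleukemic and the leukemic stage. Egr1 fell, and the other 9 members did not pass the test. Of all 10541 genes tested, 14.7% passed it, 8.47% as higher and 6.26% as lower in leukemic BCP cells, so that 1 of 10 members lies near the background. 5 of the 10 members had a fold change above 0 and the median of the 10 was -0.07 on the log2(FPKM + 1) scale, against -0.02 over all genes tested. The groups did not overlap for 1 of 10 members, against 32.0% of all genes tested, and for 17.1% of all genes every leukemic sample was below every preleukemic one. After quantile normalization the split over all genes moved from 893 higher and 660 lower to 754 higher and 907 lower, and Egr1 was still the only member called.

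Egr1, an immediate-early zinc-finger transcription factor (chr18:34861207-34864956, GRCm38), was the member with the largest fitted difference when all 7 samples were used. Preleukemic replicates 1 to 4 had 29.9, 32.8, 28.1 and 19.5 FPKM of this gene, and leukemic replicates 1 to 3 had 7.32, 12.3 and 15.7 FPKM. Every leukemic sample was below every preleukemic sample, and the preleukemic mean (27.6 ± 5.73 FPKM, n = 4) was 2.34 times the leukemic mean (11.8 ± 4.21 FPKM, n = 3). The difference was -1.20 on the log2 scale (SE 0.26, 95% interval -1.81 to -0.58, limma adjusted p = 0.0278). The call rested on all 4 preleukemic samples. Without preleukemic replicate 1, 2, 3 or 4 the difference was -1.15, -1.11, -1.18 or -1.35, with adjusted p = 0.0659, 0.0743, 0.0799 and 0.0572, while the share of all genes called dropped to 8.84%, 4.2%, 2.57% and 1.41%. No member passed the test in any of these 4 fits, in which 2, 2, 2 and 1 members had an unadjusted p under 0.05.

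Ret (chr6:118151748-118197744) was measured at 5.63, 7.09, 7.95 and 8.35 FPKM in preleukemic samples and at 2.38, 4.59 and 6.63 FPKM in leukemic samples. Leukemic replicate 3 lay within the preleukemic range and the other 2 leukemic samples lay below it. The leukemic mean was 4.53 ± 2.12 FPKM (n = 3) and the preleukemic mean 7.25 ± 1.21 FPKM (n = 4). The difference of -0.64 (SE 0.27) had a 95% interval of -1.28 to -0.005 and did not pass the test across all genes (limma adjusted p = 0.145). It was -0.33 without leukemic replicate 1 (adjusted p = 0.285), -0.69 without replicate 2 (adjusted p = 0.188) and -0.91 without replicate 3 (adjusted p = 0.0564). Read from the whole-fragment steps, these values rest on about 191 to 588 fragments per sample, with a counting error of 7.2% to 4.1%.

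Over the 7 samples the genes most like Ret were Ptgr1 (r = 0.994), Syk (r = 0.993) and Akap13 (r = 0.993), of 8776 genes tested with a mean of at least 5 FPKM. Syk encodes a kinase that relays the signal of the pre-B-cell receptor, Ptgr1 an enzyme of prostaglandin and leukotriene metabolism, and Akap13 an anchoring protein for protein kinase A. For Syk, leukemic replicates 1 to 3 gave 32.1, 65.6 and 92.1 FPKM and preleukemic replicates 1 to 4 gave 90.5, 112, 119 and 137 FPKM, the same order of samples as for Ret. These correlations are between log2 values over samples that share the difference in stage and in the levels of other cell types, and they are given as a description. Among the members, Dusp6 (r = 0.84, Spearman's rho 0.75) and Egr1 (r = 0.80, rho 0.57) varied most like Ret, whereas Spry1 did not (r = -0.30, rho -0.29).

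**Figure D2:**
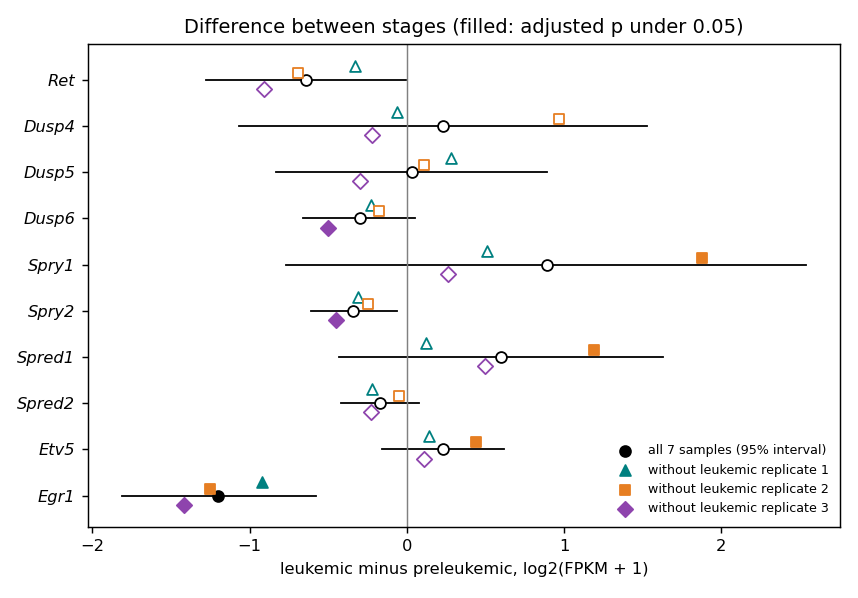
Difference between leukemic and preleukemic samples for each member on the log2(FPKM + 1) scale, with all 7 samples (circles, with 95% intervals), without leukemic replicate 1 (triangles), without leukemic replicate 2 (squares) and without leukemic replicate 3 (diamonds), filled where the adjusted p is under 0.05. The interval of Egr1 (-1.81 to -0.58) lies furthest from 0, and the widest intervals with all samples belong to Spry1 (-0.77 to 2.54) and Dusp4 (-1.07 to 1.53).

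None of the 3 dual-specificity phosphatase genes passed the test. Dusp6 encodes the cytoplasmic phosphatase that is selective for ERK (chr10:99263231-99267489). It had 166, 174, 183 and 184 FPKM in preleukemic samples and 129, 121 and 188 FPKM in leukemic samples, so that leukemic replicates 1 and 2 lay below the preleukemic range and replicate 3 above it. The difference was -0.30 (SE 0.15, 95% interval -0.66 to 0.05, limma adjusted p = 0.201). Dusp4 and Dusp5 encode nuclear phosphatases of the same family. Dusp4 (chr8:34807610-34819894) varied among leukemic samples, with 8.99, 1.42 and 11.5 FPKM, against 4.48, 7.63, 4.25 and 3.29 FPKM in preleukemic samples. Its difference of 0.23 (SE 0.56, adjusted p = 0.794) had an interval of -1.07 to 1.53. Dusp5 (chr19:53529318-53541322) had 4.55, 6.06 and 11.3 FPKM in leukemic samples and 5.39, 12.6, 5.19 and 5.47 FPKM in preleukemic samples, where replicate 2 stood above the other 3. Its group means were nearly equal, with 7.32 ± 3.57 FPKM (n = 3) and 7.17 ± 3.65 FPKM (n = 4), and the interval of the difference was -0.83 to 0.89 (adjusted p = 0.959).

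The Sprouty genes, whose products block the path from receptor to RAS and RAF, differed from each other. Spry1 (chr3:37639947-37644599) was low and even in preleukemic samples, with 3.8, 3.61, 2.48 and 3.5 FPKM. In leukemic samples it had 12.3, 1.0 and 18.0 FPKM, so that replicates 1 and 3 lay above and replicate 2 below every preleukemic sample. The highest leukemic value was 17.9 times the lowest, compared with 1.53 times in preleukemic samples. A leukemic range as large on the log2 scale was found in 1.05% of all genes tested. The low value in leukemic replicate 2 rests on about 39 fragments, with a counting error of 15.9%. The difference between the groups was 0.89 (SE 0.71, 95% interval -0.77 to 2.54, limma adjusted p = 0.4). Spry2 (chr14:105891947-105896819), in contrast, was even in both groups. It had 16.0, 13.2, 14.0 and 14.7 FPKM in preleukemic samples and 10.8, 9.84 and 13.2 FPKM in leukemic samples, and the groups met only at leukemic replicate 3 and preleukemic replicate 2. The difference of -0.34 (SE 0.12, 95% interval -0.61 to -0.06) did not pass the test across all genes (limma adjusted p = 0.0926). The median difference of chromosome 14, where Spry2 lies, was -0.09 and -0.10 in leukemic replicates 1 and 2 and 0.15 in replicate 3, and its part in the Spry2 values was not tested.

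The Spred genes, whose products bring the GTPase-activating protein neurofibromin to RAS, showed the same contrast. Spred1 (chr2:117121071-117182277) had 31.6, 25.4, 30.6 and 28.4 FPKM in preleukemic samples. In leukemic samples it had 88.2, 19.1 and 51.2 FPKM, again with replicates 1 and 3 above and replicate 2 below the preleukemic range. The difference was 0.60 (SE 0.44, 95% interval -0.43 to 1.63, limma adjusted p = 0.361), and 3.61% of all genes tested had as large a leukemic range. Spred2 (chr11:19924442-20022597) had 26.8, 24.6, 25.9 and 25.2 FPKM in preleukemic samples and 24.4, 19.1 and 25.0 FPKM in leukemic samples. Only its leukemic replicate 2 stood well below the others, and the difference of -0.17 (SE 0.11, 95% interval -0.42 to 0.08) did not pass the test (adjusted p = 0.295). Etv5, a transcription factor of the PEA3 group of ETS proteins (chr16:22381313-22439570), had 25.7, 22.3, 21.8 and 23.1 FPKM in preleukemic samples and 31.1, 20.1 and 32.4 FPKM in leukemic samples. Its spread was smaller than that of Spry1 and Spred1, with as large a leukemic range in 28.1% of all genes tested, but the leukemic samples fell on the same sides of the preleukemic range (difference 0.23, SE 0.17, 95% interval -0.16 to 0.62, adjusted p = 0.359).

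Spry1, Spred1, Etv5 and Dusp4 were each lowest of all 7 samples in leukemic replicate 2 and above every preleukemic sample in leukemic replicates 1 and 3. Relative to the preleukemic mean on the log2(FPKM + 1) scale, Spry1 stood at 1.63, -1.11 and 2.14 in leukemic replicates 1, 2 and 3, Spred1 at 1.58, -0.57 and 0.80, Dusp4 at 0.81, -1.24 and 1.13, and Etv5 at 0.41, -0.19 and 0.47. Over the 7 samples Spry1 followed Etv5 (r = 0.97, Spearman's rho 0.96), Dusp4 (r = 0.90, rho 0.93) and Spred1 (r = 0.88, rho 0.82), values that rest mainly on the 3 leukemic samples and are a description. Etv4 and Spry4, relatives of Etv5 and Spry1 among the other ERK-regulated genes, were looked at after their values were seen. Spry4 was also lowest in leukemic replicate 2 (12.4, 2.43 and 6.84 FPKM in leukemic and 6.81, 3.56, 3.91 and 3.92 FPKM in preleukemic samples). Etv4 had 10.6, 2.32 and 15.7 FPKM in leukemic samples and 5.21, 2.05, 4.16 and 2.71 FPKM in preleukemic samples. Its leukemic replicate 2 thus stayed within the preleukemic range. Etv1, another relative of Etv5, was under the filter and did not show the pattern. It had 0.299, 0.504 and 1.42 FPKM in leukemic samples, with replicate 1 lowest, and 0.134 to 0.655 FPKM in preleukemic samples. Leukemic replicate 2 was also the sample with the most red cell, macrophage and T and NK cell marker RNA (23295, 246 and 69.8 FPKM), while its BCP markers summed to 5447 FPKM, the highest of the leukemic samples. The part of these levels in the low values was not tested.

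**Figure D3:**
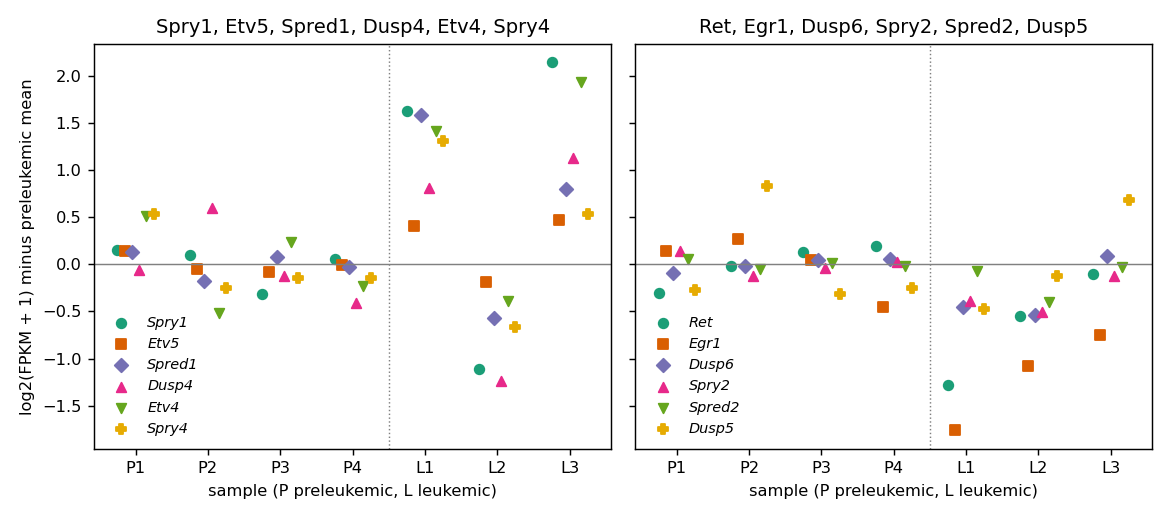
Level of 12 genes in each sample relative to the mean of the preleukemic samples, in log2(FPKM + 1), for preleukemic (P1 to P4) and leukemic (L1 to L3) replicates. On the left, Spry1, Etv5, Spred1, Dusp4 and the non-members Etv4 and Spry4 are above 0 in L1 and L3 and below 0 in L2. On the right, Ret, Egr1, Spry2 and Spred2 are below 0 in all 3 leukemic samples, Spred2 only slightly in L1 and L3.

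The test of several members turned on a single leukemic sample. Without leukemic replicate 2, when 15.4% of all genes passed, 4 members did: Spry1 (1.88, adjusted p = 0.00593), Spred1 (1.19, adjusted p = 0.0213) and Etv5 (0.44, adjusted p = 0.0334) were higher and Egr1 (-1.25, adjusted p = 0.0446) was lower in leukemic BCP cells, all by limma. Without leukemic replicate 3, when 13.3% of all genes passed, 3 members did, and all were lower. These were Dusp6 (-0.50, adjusted p = 0.0266), Spry2 (-0.45, adjusted p = 0.0445) and Egr1 (-1.42, adjusted p = 0.0322). Without leukemic replicate 1 (13.0% of all genes) Egr1 alone passed. The differences of Spry1, Spred1 and Etv5 shrank in the other 2 of these fits, to 0.51, 0.12 and 0.14 without leukemic replicate 1 and to 0.26, 0.50 and 0.11 without leukemic replicate 3. Which members passed, and in which direction, thus differed with the leukemic samples that were kept.

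The promoters of Spry1, Spred1 and Etv5 are shown because these genes varied together among leukemic samples, and that of Dusp5 because it did not follow them. Promoter sequences (RefSeq, GRCm38.p6, 250 bases before to 50 bases after the start) were matched for 7 of the 10 members (not Ret, Dusp4 and Egr1), and for Etv5 the first of its 2 listed starts is shown. Each line gives the 150 bases before the start, 5′ to 3′ in the direction of the gene, in lower case, with motif matches in capitals.
Spry1 (chr3:37639797-37639946, plus strand): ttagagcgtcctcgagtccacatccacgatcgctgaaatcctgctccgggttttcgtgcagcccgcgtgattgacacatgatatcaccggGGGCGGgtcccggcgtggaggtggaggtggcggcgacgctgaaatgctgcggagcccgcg
Spred1 (chr2:117120921-117121070, plus strand): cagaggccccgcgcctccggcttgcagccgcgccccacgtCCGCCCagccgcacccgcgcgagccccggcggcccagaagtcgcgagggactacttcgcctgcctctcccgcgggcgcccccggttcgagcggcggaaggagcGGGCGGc
Etv5 (chr16:22439571-22439720, minus strand): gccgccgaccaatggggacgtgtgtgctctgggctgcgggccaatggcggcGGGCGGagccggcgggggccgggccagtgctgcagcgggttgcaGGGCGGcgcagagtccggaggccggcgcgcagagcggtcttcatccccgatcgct
Dusp5 (chr19:53528995-53529144, plus strand): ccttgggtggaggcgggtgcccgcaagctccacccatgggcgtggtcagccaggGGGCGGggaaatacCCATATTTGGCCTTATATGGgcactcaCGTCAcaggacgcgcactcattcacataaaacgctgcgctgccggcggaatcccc
The motifs searched on both strands were the ETS core (CCGGAA), the CRE core (TGACG), the AP-1 site (TGANTCA), the CArG box bound by serum response factor and the GC box (GGGCGG). The capitals in the Spry1, Spred1 and Etv5 windows mark GC boxes, a motif found in 35.7% of 32851 promoters of the same 300-base length. In the Dusp5 window they mark a GC box, 2 adjoining CArG boxes and a CRE core. A CArG box was found in 1.63% of all promoters and a CRE core in 20.8%. No AP-1 site (7.81% of promoters) was matched in the windows of the 7 members, and an ETS core (14.9%) was matched in that of Spry2. The windows of Dusp6 and of the other Etv5 start had no match. That of Spred2 had a GC box and a CRE core. Whether the matches go with the pattern of the genes over samples was not tested. These matches are a description of the letters and not of binding.

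The rest of the pathway was read from 7 lists, and 8 of its 70 tested genes passed the test (11.4%, against 14.7% of all genes), with 6 higher and 2 lower in leukemic BCP cells. Of 10 Ret ligands and co-receptors, 2 were expressed above the filter. Gfra1, the co-receptor for GDNF, fell by 1.58 on the log2 scale (SE 0.38, limma adjusted p = 0.0354). It had 72.8, 29.7, 72.7 and 94.3 FPKM in preleukemic samples and 19.9, 26.0 and 15.9 FPKM in leukemic samples, with no overlap, although preleukemic replicate 2 came close to the leukemic samples. The call of Gfra1 was lost without leukemic replicate 1 (adjusted p = 0.068) or 3 (adjusted p = 0.0784), without preleukemic replicate 1, 3 or 4, and with no filter. Gfra2, the co-receptor for neurturin, ranged from 8.56 to 129 FPKM in leukemic samples and from 22.2 to 46.7 FPKM in preleukemic samples (adjusted p = 0.915).

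Between the receptor and ERK, Rras was the only gene called with all 7 samples. None of the 18 tested adaptors and RAS exchange factors passed the limma test (5 with an unadjusted p under 0.05), with a median difference of 0.00. Without leukemic replicate 1 or 3, however, 2 and 3 of them were called lower. Of all genes tested, 34.0% had an unadjusted p under 0.05. The most expressed were Rasgrp2, an exchange factor for RAS-family GTPases, at 183 to 253 FPKM over both groups (-0.10, adjusted p = 0.543), and Dok3, an adaptor that dampens B-cell receptor signaling, at 21.4 to 87.9 FPKM in leukemic and 78.4 to 117 FPKM in preleukemic samples (-1.01, adjusted p = 0.14). Of 12 tested genes for RAS, RAF, MEK and ERK, the RAS relative Rras rose (6.67, 6.03 and 9.06 against 4.63, 2.85, 3.04 and 3.56 FPKM, difference 0.87, SE 0.19, adjusted p = 0.0261). Rras was no longer called by limma without leukemic replicate 3 (adjusted p = 0.053). Nor was it without preleukemic replicate 2, 3 or 4 (adjusted p = 0.0688, 0.0778 and 0.0803). Map2k1, which encodes MEK1, was at 50.8 to 77.6 FPKM in leukemic and 38.4 to 47.7 FPKM in preleukemic samples (0.47, adjusted p = 0.0882). It lies on chromosome 9, whose genes had a median difference of 0.23. None of 8 RAS GTPase-activating proteins passed the limma test (2 with an unadjusted p under 0.05). However, 2 of them were called lower without leukemic replicate 2, and 1 with quantile normalization. The most expressed genes of this list were Rasa3 (-0.67, adjusted p = 0.152) and Rasal3 (0.18, adjusted p = 0.574).

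**Figure D4:**
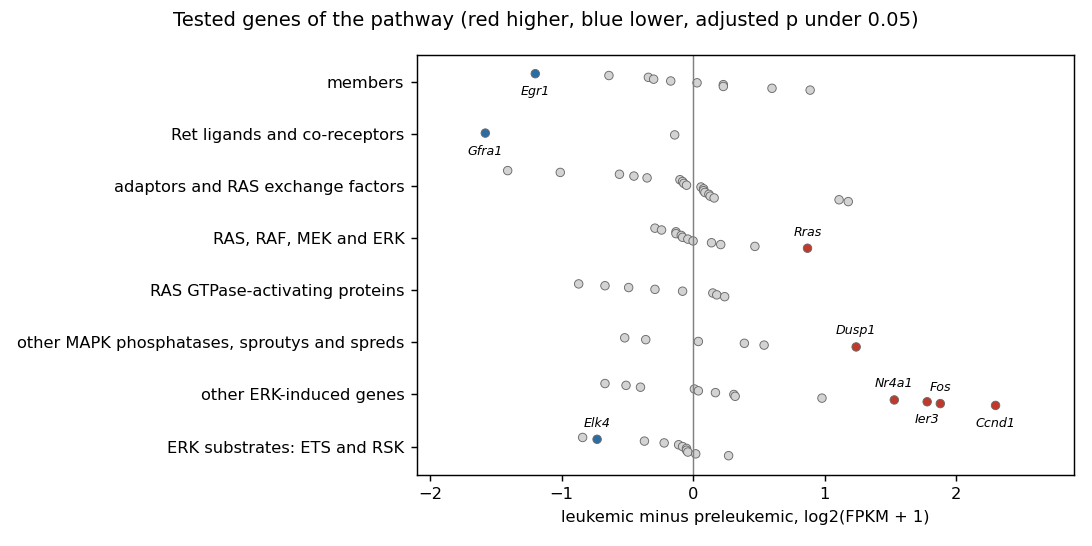
Difference between leukemic and preleukemic samples, in log2(FPKM + 1), for each tested gene of the members and of the 7 pathway lists, 1 point a gene, offset in height for legibility. Genes with an adjusted p under 0.05 are named and colored, red for higher (6 genes) and blue for lower in leukemic samples (Egr1, Gfra1 and Elk4).

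Among other ERK-regulated genes, 5 of those tested rose and none fell. Of 6 tested phosphatase, Sprouty and Spred genes outside the members, Dusp1 rose, a phosphatase that acts mainly on p38 and JNK. It had 11.0, 10.1 and 17.9 FPKM in leukemic samples and 4.98, 4.88, 4.57 and 4.55 FPKM in preleukemic samples (difference 1.24, SE 0.18, limma adjusted p = 0.0123). Dusp2 (-0.52, adjusted p = 0.0628) and Dusp7 (adjusted p = 0.79) were the most expressed of this list and did not pass the test. Of 13 tested genes in the list of other ERK-induced genes, 4 rose, none fell, and the median difference was 0.31, where 8.47% of all genes tested rose. All leukemic samples were above all preleukemic samples for 5 of the 13 and below them for 3. Of all 10541 genes tested this held for 1571 and 1806. No gene of this list was called higher without preleukemic replicate 3 or 4, and 5 were without leukemic replicate 2. Ccnd1, which encodes cyclin D1, had 117, 29.9 and 102 FPKM in leukemic samples and 4.59 to 22.2 FPKM in preleukemic samples (2.30, SE 0.63, adjusted p = 0.0496). Its lowest leukemic value was also in replicate 2. The call of Ccnd1 was lost without leukemic replicate 1 (1.95, adjusted p = 0.11) or 3 (2.05, adjusted p = 0.105), without any 1 of the preleukemic samples, and with either smaller pseudocount, no filter or no trend. Fos, a subunit of AP-1, had 6.61, 2.31 and 13.3 FPKM against 0.788, 1.85, 0.611 and 0.698 FPKM (1.88, SE 0.48, adjusted p = 0.041). The call of Fos was lost without leukemic replicate 1 or 3, without any 1 of the preleukemic samples, and with quantile normalization or no filter. The immediate-early genes Nr4a1 (1.53, SE 0.26, adjusted p = 0.0163) and Ier3 (1.78, SE 0.36, adjusted p = 0.0226) were above every preleukemic sample in all 3 leukemic samples. Ier3 had 0.761, 0.0771, 0.01 and 0.0827 FPKM in preleukemic samples. The preleukemic values of Fos, Nr4a1 and Ier3 alone do not add up to the filter's 10 FPKM. These genes, among the 4 called, entered the test through their leukemic values, which favours a rise. With no filter on low values, limma still called Nr4a1 (adjusted p = 0.0223) and Ier3 (adjusted p = 0.0279) but not Fos (adjusted p = 0.0612). Egr1, also an immediate-early gene, was lower in the leukemic samples in which Fos, Nr4a1 and Ier3 were higher. Given how those genes entered the test, this contrast is a description only. Not every gene of this list rose with Fos, Nr4a1 and Ier3. Ier2 (-0.51, limma adjusted p = 0.115) and Arc (-0.67, adjusted p = 0.099) were below every preleukemic sample in all 3 leukemic samples. Jun (0.17, adjusted p = 0.606) and Junb (0.01, adjusted p = 0.98) hardly differed between the groups. Dusp1 and Ier3 lie on chromosome 17, whose genes had a median difference of 0.35, and the part of the chromosome in their values was not tested.

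Mcl1, a survival gene and the most expressed of the other ERK-induced genes along with Myc, was at 78.1 to 118 FPKM in leukemic and 123 to 144 FPKM in preleukemic samples (-0.40, limma adjusted p = 0.112). Myc was at 54.8 to 139 and 50.3 to 146 FPKM (0.32, adjusted p = 0.62). Among 11 ETS and RSK-type substrates of ERK, Elk4 fell. This ternary complex factor, which partners serum response factor, had 25.9, 28.8 and 26.1 FPKM in leukemic samples and 41.7, 53.3, 41.7 and 45.6 FPKM in preleukemic samples (-0.73, SE 0.11, adjusted p = 0.0123). The kinase gene Mknk2 (0.27, adjusted p = 0.374) and Ets1 (-0.37, adjusted p = 0.105) were the most expressed of this list. Of the 8 calls in the pathway lists, 8 were still made without leukemic replicate 2, 5 without leukemic replicate 1, 4 without replicate 3, and 5, 4, 2 and 0 without preleukemic replicates 1, 2, 3 and 4.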

How the data were processed

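RNA was isolated from splenic BCP cells in 3 leukemic and 4 preleukemic samples, and stranded mRNA libraries were sequenced. The authors deposited 1 FPKM value per gene and sample for 24341 genes, with no value below 0.01. The submitters' processing notes name STAR 2.5.0b, Cufflinks 2.2.1, bedtools 2.17.0, Bowtie, DESeq2 and mm10. Whether counting used strand, and how reads of the transgene were handled, is not given in the sources used here. FPKM is not a count, so no count model was used. Genes whose FPKM added up to 10 or more over the 7 samples (10541 genes) entered a fit of log2(FPKM + 1) by limma 3.58.1 (R 4.3.3, eBayes with an intensity trend, no covariates), with Benjamini-Hochberg adjustment over all genes tested and a threshold of 0.05. Fold changes on this scale understate the change of low genes. The fit was tested on simulated data. A count of groups that do not overlap compares every leukemic with every preleukemic sample. That each sample came from a separate mouse is not stated, so p-values measure only the spread between these samples, which may be technical.

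Depth was read from 2243 genes with a single transcript over 1500 bases, assuming 200-base fragments, with values within 0.1 of a whole number of fragments taken as whole, and counting errors cover counting alone. Fragments per member were approximated from the longest coding transcript (GENCODE M21). Chromosome medians were taken over genes with a mean of at least 5 FPKM. Named genes were the members, from each pathway list up to 4 called genes and the 2 most expressed, and the 3 genes most like Ret. Etv1, Etv4, Spry4, Ier2, Arc, Jun and Junb are outside this rule and were added after their values were seen. 1 gene that this rule names is not reported here. Members and lists were chosen with earlier results of these data known. Alternatives were other pseudocounts, filters and scalings, no trend, a replicate block and leaving out each sample.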

Additional observations from a re-analysis of the deposited data

Results flagged for a closer look

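Dusp5 in preleukemic replicate 2, at 12.6 FPKM, stood far above the other 3 preleukemic samples (5.39, 5.19 and 5.47 FPKM). Its gap to the nearest of them was 0.944 of the group's whole range on the log2(FPKM + 1) scale, above Dixon's 95% critical value for a group of 4. The preleukemic values of the 10 members were looked at in this way, and chance marks about 1 group in 20. Groups of 3 were not tested, so the spread of the leukemic samples was not examined by this rule.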

How the results depend on the processing

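The replicate numbers were not taken to pair the samples. The deviations of same-numbered samples correlated at 0.0294, 0.0502 and -0.0925, and not every sample correlated best with its own number. These deviations are from means of only 3 or 4 samples, so they cannot exclude a pairing. With a replicate block, in which preleukemic replicate 4 has no partner, limma called 0 genes (2429 with an unadjusted p under 0.05) and 0 members (2 with an unadjusted p under 0.05), and Egr1 was at -1.35 (adjusted p = 0.137). With a filter at an FPKM sum of 70, 951 genes were called in place of 1553, and Egr1 was called among the 6 members tested. Leaving out 1 sample at a time gave 149 to 1620 genes and 0 to 4 members. Among member differences, Dusp5 turned to -0.01 with quantile normalization and to -0.05 with the block, and ran from -0.30 to 0.31 when 1 sample was left out. Dusp4 ran from -0.22 to 0.97 when 1 sample was left out. Of the 8 calls in the pathway lists, 5 were made with no filter on low values and 0 with the block. Over all alternatives the count of other ERK-induced genes that were higher ran from 0 to 5, and that of adaptors and RAS exchange factors that were lower was 2 with quantile normalization. The cause of these changes was not tested. Every other member kept its direction under all alternatives in which it was tested. With 3 leukemic samples that differed this widely, a difference in Spry1, Spred1 or Dusp4 smaller than their intervals could not be seen, and FPKM carry no error of their own.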
